A study of Mus musculus with 16 samples.

Results

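The genes described here build the thick filament of heart muscle and the M-band that ties thick filaments together. They are the myosin heavy chain genes Myh6, Myh7 and Myh7b, the cardiac myosin-binding protein C gene Mybpc3, and the myomesin genes Myom1 and Myom2, chosen by name. All 6 names matched 1 row each of the 16118 genes in the deposited table. RNA was sequenced from the ventricles and the atria of 8 adult male mice, littermates by their labels, with outflow tracts removed, 2 weeks after tamoxifen. All 8 mice were Meis1flox/flox; Meis2flox/flox. The 4 idKO mice were also alpha-MHC-MerCreMer tg/wt, so a Cre recombinase that tamoxifen activates was made from the promoter of alpha-MHC, the protein that Myh6 encodes, which is active in heart muscle cells and not in the other cells of the tissue. The 4 control mice were alpha-MHC-MerCreMer wt/wt, so they carried the floxed alleles and no Cre, and effects of the Cre transgene cannot be told apart from those of deleting Meis1 and Meis2. The 4 groups of 4 libraries were idKO ventricle, control ventricle, idKO atrium and control atrium, and replicate numbers name the mouse within a genotype, so that a ventricle and an atrium with the same number came from the same animal.

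Myosin heavy chains are the motor proteins of the thick filament. Myh6 encodes the fast alpha chain, the main one in the adult mouse heart, and Myh7 encodes the slow beta chain, which prevails in the fetal mouse ventricle and returns in many forms of heart stress. Myosin-binding protein C lies along the filament and tunes how myosin heads meet actin, and the myomesins cross-link the filaments at their middle, the M-band.

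The check of the labels came first. Meis2, in the deposited normalised read counts (CPM, reads scaled to a common library size), measured 7.78 to 9.66 in idKO ventricles against 22.4 to 32.6 in control ventricles, and 15.3 to 19.0 in idKO atria against 18.7 to 22.1 in control atria. Meis1 measured 19.9 to 25.4 CPM in idKO ventricles against 26.8 to 28.4 in control ventricles, and 26.4 to 33.0 in idKO atria against 25.7 to 32.4 in control atria. By limma, Meis2 was called lower in idKO ventricles (log2 fold change -1.49, adjusted p = 2.0e-05) and was not called in atria (-0.16, adjusted p = 0.966). Meis1 was not called in ventricles (-0.24, adjusted p = 0.236) or in atria (0.06, adjusted p = 0.986). The labels do not name the floxed exons, so these values may count RNA that a recombined allele still makes. Atrial marker genes summed to 34814 to 43685 CPM in the atria and 192 to 1664 in the ventricles, and ventricular markers to 87.8 to 289.4 CPM in the atria and 13938 to 16757 in the ventricles. The libraries held 13.1 to 21.8 M reads in genes. No library went against its chamber label, but 3 mice (idKO 3, idKO 4 and control 2) stood apart from the other 5 in Myh7. Most results that rest on them are given with and without them. The labels hold nothing on litter, strain background or handling that separates these 3 mice, and whether they differ in those was not tested.

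Myh6 (ENSMUSG00000040752, chromosome 14, 54941921 to 54966927) and Myh7 (ENSMUSG00000053093, chromosome 14, 54970684 to 54994626) lie side by side on the minus strand of build GRCm38. Myh7b (ENSMUSG00000074652) lies on the plus strand of chromosome 2, 155611212 to 155634307. Each of the 3 genes carries a muscle microRNA in an intron, intron 29 of Myh6, intron 31 of Myh7 and intron 19 of Myh7b. Background knowledge in mice ties these microRNAs to the balance of the alpha and beta chains. Their mature forms are shown here, from RefSeq for GRCm38.p6, to link the genes of the family; the libraries of polyadenylated RNA did not measure them. Capitals mark the seed, bases 2 to 8.
mmu-miR-208a-3p, in Myh6: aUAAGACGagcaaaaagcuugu
mmu-miR-208b-3p, in Myh7: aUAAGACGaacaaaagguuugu
mmu-miR-499-5p, in Myh7b: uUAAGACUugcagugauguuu
The seed UAAGACG was shared by the microRNAs of Myh6 and Myh7, and the seed of the one in Myh7b was UAAGACU.

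Per kilobase of transcript, Myh6 had the highest level of the 6 genes in every group. It averaged 5966 ± 534 CPM per kilobase in idKO ventricles, 6177 ± 352 in control ventricles, 5226 ± 371 in idKO atria and 5578 ± 472 in control atria (SD, n = 4 each). Mybpc3 came next in every group, with 1426 ± 119 CPM per kilobase in idKO ventricles against 1344 ± 82.3 in control ventricles, and 442 ± 46.9 in idKO atria against 467 ± 50.4 in control atria. The libraries of Mybpc3 overlapped with those of neither neighbour in this order. Myom2 and then Myom1 followed. Their ranges did not overlap in idKO ventricles (414 to 506 and 253 to 386 CPM per kilobase), in idKO atria or in control atria, but they did in control ventricles (260 to 387 and 309 to 337). Myh7 stood below Myom1 on average, from 278 CPM per kilobase in idKO ventricles to 62.6 in control atria, and its range overlapped with that of Myom1 in all 4 groups. Myh7b was last, with 21.4 CPM per kilobase in idKO ventricles, 21.8 in control ventricles, 0.180 in idKO atria and 0.120 in control atria.

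**Figure D1:**
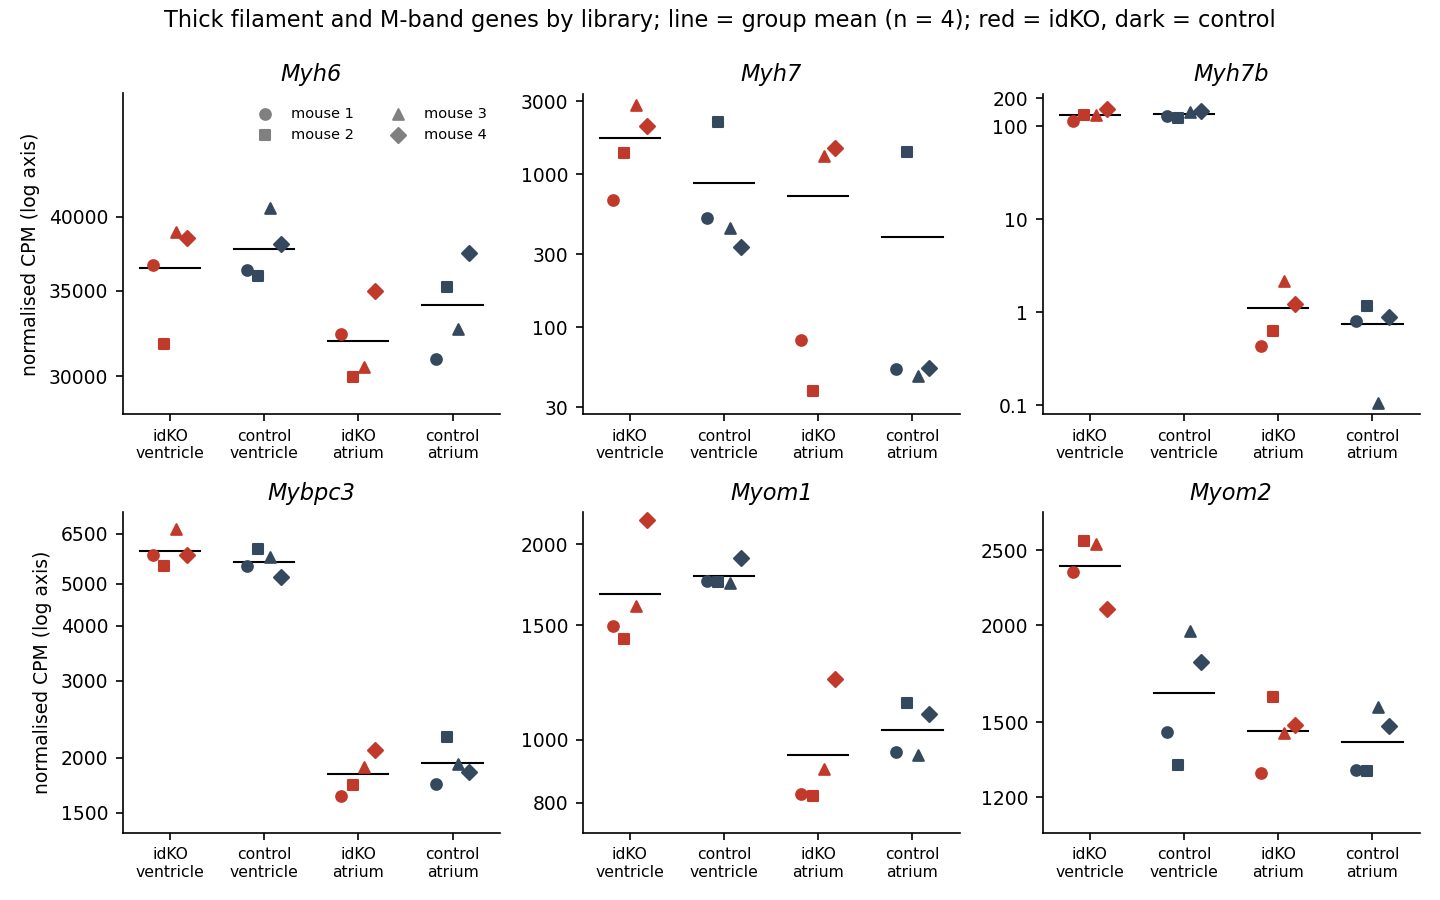
Normalised CPM (log axis, with a scale of its own for each gene) of the 6 genes in the 16 libraries; points are libraries, marker shapes name the mouse and lines are group means. Myh7 separates mice of the same group by more than 4-fold, while the Myom2 values of the 4 idKO ventricles (2101 to 2566) lie above those of the 4 control ventricles (1322 to 1966).

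In ventricles, Myom2 rose in idKO mice and the other 5 genes did not pass the test. The count of 1 higher in 6, and of 0 lower, stands against 0.533% of the 13144 genes tested that were called higher (limma, adjusted p under 0.05), 2.03% called in either direction and 1.5% called lower. In genes, 70 were higher and 197 lower, and 150 were higher and 108 lower when libraries were rescaled to the same sum. The comparison is between mice with and without the Cre meant to delete Meis1 and Meis2, which encode homeodomain transcription factors, in heart muscle cells. Meis2 RNA was called lower in idKO ventricles, while Meis1 RNA was not called (limma adjusted p = 0.236). In bulk RNA, fewer cells of a type and less RNA per cell cannot be told apart.

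Myom2 (ENSMUSG00000031461, chromosome 8, 15057653 to 15133541) encodes myomesin-2, or M-protein, the myomesin of fast-contracting fibres and of heart muscle. Its values were 2341, 2566, 2544 and 2101 CPM in idKO ventricles 1 to 4, against 1457, 1322, 1966 and 1794 CPM in control ventricles 1 to 4. Every idKO ventricle lay above every control ventricle. The mean was 2388 ± 217 CPM in idKO ventricles and 1635 ± 297 in control ventricles (SD, n = 4 each), a ratio of 1.46, with a log2 fold change of 0.56 ± 0.11 (SE, 95% interval 0.32 to 0.80; limma adjusted p = 0.021, rank 152 by p). The direction held in all 16 alternatives, but the call was lost in 5 of them: adjusted p was 0.084 with no filter on low values, 0.064 without control ventricle 1, 0.053 without control ventricle 2, 0.067 without idKO ventricle 2 and 0.067 without idKO ventricle 3. Without mice idKO 3, idKO 4 and control 2 together, the log2 fold change was 0.51 (limma adjusted p = 0.035).

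Markers of other cell types were read beside this rise. Over all 13144 genes tested, 0.533% were called higher, 1.5% lower and 2.03% in either direction. The absence of a call in so short a list therefore does not show that a cell type was unchanged. None of the 5 macrophage markers was called, but their summed level was 176 to 203 CPM in idKO ventricles and 157 to 166 in control ventricles, with no overlap. None of 7 fibroblast markers was called; they summed to 1051 to 1714 CPM in idKO ventricles and 988 to 1185 in control ventricles. None of 5 endothelial, 4 smooth muscle or 3 red blood cell markers was called either. Of the 5 atrial markers, 4 were tested in ventricles and only Nppa, which encodes the natriuretic peptide ANP, rose; their sum was 496 to 1664 CPM in idKO ventricles against 192 to 236 in control ventricles. Skeletal muscle markers, read because Myom2 is also a gene of fast skeletal fibres, summed to 22.9 to 32.4 CPM in idKO ventricles and 21.3 to 28.7 in control ventricles, most of it Mybpc2 (25.6 ± 3.65 and 22.2 ± 2.76 CPM). The skeletal myosin gene Myh1 was at 0.0584 CPM in idKO ventricles and 0.117 in control ventricles. Cardiomyocyte markers summed to 49318 to 53707 CPM in idKO ventricles and 53278 to 58298 in control ventricles, and 1 of the 6, Ryr2, the calcium release channel, fell (1485 ± 179 against 2342 ± 177 CPM, log2 fold change -0.66). Ventricular markers summed to 13938 to 15658 CPM in idKO ventricles and 15344 to 16757 in control ventricles, and 1 of the 4, the homeobox gene Irx4, fell (24.9 ± 4.33 against 38.7 ± 2.87 CPM, log2 fold change -0.63, limma adjusted p = 0.0099). The part of these markers in the Myom2 result was not tested.

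Myom1 (ENSMUSG00000024049, chromosome 17, 71002633 to 71126856) encodes myomesin-1, the cross-linker found in all striated muscle. Its values were 1498, 1428, 1608 and 2178 CPM in idKO ventricles 1 to 4, against 1752, 1748, 1745 and 1904 in control ventricles 1 to 4. Libraries of idKO ventricles 1 to 3 lay below all control ventricles and that of idKO ventricle 4 above all of them. Across all 8, the log2 fold change was -0.11 ± 0.11 (SE, 95% interval -0.34 to 0.12; limma adjusted p = 0.683). Without idKO ventricle 4 it was -0.24 and was not called (limma adjusted p = 0.065). Without the 3 mice, idKO 4 among them and chosen after the values were seen, it was -0.30 (limma adjusted p = 0.043), and after rescaling it was -0.0069. As a description of the pair of myomesins, the ratio of Myom2 to Myom1 averaged 1.48 ± 0.36 in idKO ventricles and 0.914 ± 0.161 in control ventricles, and 1.59 ± 0.31 in idKO atria and 1.38 ± 0.21 in control atria (SD, n = 4 each). In idKO ventricle 4 it was 0.965, below the highest control ventricle at 1.13.

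Myh7 showed the widest spread of the ventricular values. It measured 682, 1367, 2832 and 2049.8 CPM in idKO ventricles 1 to 4, against 519, 2186, 443 and 335 CPM in control ventricles 1 to 4. Control ventricle 2 stood above all but 1 of the idKO ventricles, and the other 3 control ventricles lay below all 4 idKO ventricles. The means were 1733 ± 921 CPM in idKO ventricles and 871 ± 880 CPM in control ventricles (SD, n = 4 each), and the log2 fold change was 1.25 ± 0.51 (SE, 95% interval 0.15 to 2.35; limma adjusted p = 0.270), so Myh7 was not called. The call turns on control ventricle 2: without it the log2 fold change was 1.84 (limma adjusted p = 0.029). Without the 3 mice it was 1.18, from 2 idKO and 3 control ventricles (limma adjusted p = 0.028). Those mice were chosen by Myh7 itself, so this p is not independent support.

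The same 3 mice held the highest Myh7 in the atria. Its values there were 82.0, 38.3, 1303 and 1472 CPM in idKO atria 1 to 4, against 53.1, 1404, 48.3 and 54.3 CPM in control atria 1 to 4. The 3 high atria and the 5 low atria were more than 10-fold apart, and each set held both genotypes. The log2 fold change was 1.23 ± 1.28 (SE, 95% interval -1.55 to 4.01; limma adjusted p = 0.971), and without the 3 mice it was 0.11 (limma adjusted p = 0.978). The ventricles of idKO mice 1 and 2, whose atria were low, stood at 682 and 1367 CPM, above the 335 to 519 CPM of the 3 control mice with low atria. The ventricular light chain gene Myl2 measured 77.0, 42.8, 111 and 3.54 CPM in idKO atria 1 to 4, and 29.0, 22.01, 3.28 and 1.46 CPM in control atria 1 to 4. Among the idKO atria, atrium 4, with the most Myh7, was lowest for Myl2. Atrium 3, also high in Myh7, was highest for Myl2. Control atrium 2, high in Myh7 as well, lay within the range of the other control atria for Myl2. Myl3, the ventricular essential light chain gene, measured 140, 104, 175 and 79.5 CPM in idKO atria 1 to 4. In control atria it spanned 91.5 to 103 CPM, with control atrium 2 lowest. Myh7b was highest in the 3 high atria, at 2.16 and 1.21 CPM in idKO atria 3 and 4 and 1.16 CPM in control atrium 2. The 5 low atria held 0.106 to 0.888 CPM of Myh7b. These Myh7b values rest on only 1 to 39 reads. The source of the high atrial Myh7 was not tested.

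**Figure D2:**
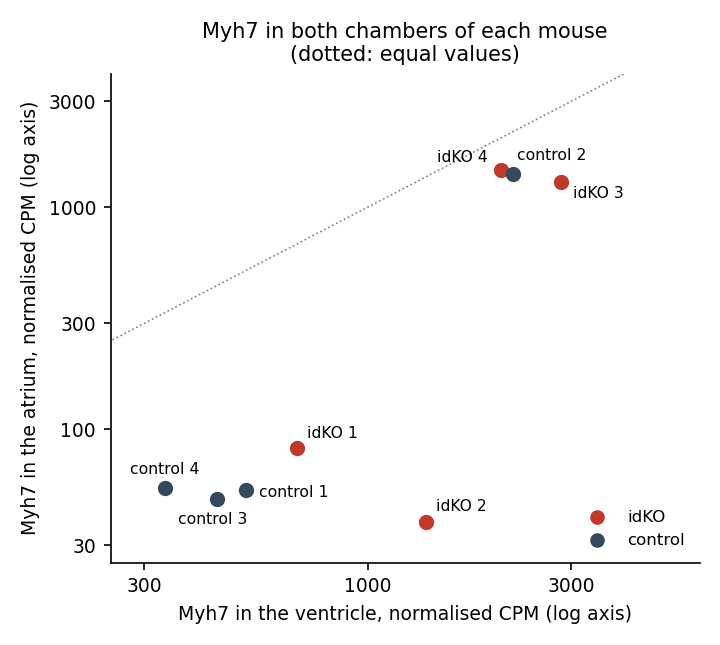
Normalised CPM of Myh7 in the atrium (vertical, log axis) against the ventricle (horizontal, log axis) of each of the 8 mice; red points are idKO, dark points control, and the dotted line marks equal values. Mice idKO 3, idKO 4 and control 2 lie together at 1303 to 1472 CPM in the atrium, and the other 5 at 38.3 to 82.0.

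Myh6 and Myh7 are close in sequence, which bears on how well reads of 60 bases can be assigned. Of the 6076 windows of 60 bases in the main Myh7 transcript, 19.0% were also found in the Myh6 transcript without a mismatch and 35.6% with at most 1 mismatch. For Myh7b against either gene, none of its 6104 windows was identical and the median window had 17 mismatches. The longest coding stretch that Myh6 and Myh7 share without a difference is 245 bases. It is shown because no read inside it can tell the genes apart. It lies at coding bases 4246 to 4490 of Myh6, in exons 30 to 31 of 39 (chr14:54948327-54948725, with the intron in the genome), and in exons 32 to 33 of 41 of Myh7 (chr14:54974947-54975347), both on the minus strand of GRCm38.
shared by Myh6 and Myh7: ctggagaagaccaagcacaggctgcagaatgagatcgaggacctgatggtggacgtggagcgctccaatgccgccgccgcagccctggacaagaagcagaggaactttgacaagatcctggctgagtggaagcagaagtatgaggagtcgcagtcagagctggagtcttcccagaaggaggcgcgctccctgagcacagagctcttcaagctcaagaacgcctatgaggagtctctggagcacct
A window of 60 coding bases with 19 mismatches, in exon 27 of Myh6 (chr14:54950078-54950137) and exon 29 of Myh7 (chr14:54978893-54978952), shows sequence that separates them. Capitals mark the bases that differ.
Myh6: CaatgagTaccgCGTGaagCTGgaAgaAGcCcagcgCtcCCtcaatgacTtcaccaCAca
Myh7: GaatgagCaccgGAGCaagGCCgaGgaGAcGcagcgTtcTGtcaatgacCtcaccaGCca
The reads recovered for Myh7 ran from 574 in idKO atrium 2 to 37412 in idKO ventricle 3, and those for Myh6 in the same libraries cannot be split again from the deposited values. As a share of Myh6 plus Myh7, Myh7 made up 0.128% in its lowest library, idKO atrium 2, and 6.78% in its highest, idKO ventricle 3. The part of shared reads in these values was not tested. The antisense RNA gene Mhrt, on the plus strand, overlaps Myh7, and whether counting used strand is not given in the sources used here, so reads of Mhrt and Myh7 in the overlap cannot be told apart. Mhrt itself averaged 85.0 ± 14.6 CPM in idKO ventricles against 91.5 ± 12.5 in control ventricles, and 62.4 ± 15.2 in idKO atria against 67.4 ± 13.1 in control atria.

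The share of Myh7 in Myh6 plus Myh7 was also highest in the same 3 mice in each chamber. It was 1.83%, 4.12%, 6.78% and 5.06% in idKO ventricles 1 to 4, against 1.41%, 5.73%, 1.08% and 0.872% in control ventricles 1 to 4. The means of 4.45% in idKO ventricles and 2.27% in control ventricles were not separated by an exact two-sided permutation test over 70 assignments (p = 0.229, n = 4 each, adjusted 0.257 over the 2 chambers; 0.029 is the smallest p it can give). In atria the share was 0.253%, 0.128%, 4.10% and 4.04% in idKO mice 1 to 4, against 0.171%, 3.83%, 0.148% and 0.145% in control mice 1 to 4 (exact permutation p = 0.257, n = 4 each, adjusted 0.257). The idKO mean exceeded the control mean by 1.06 percentage points in atria. Without the same 3 mice, chosen by their Myh7, it did so by 0.036. Within every mouse of both genotypes the share was lower in the atrium than in the ventricle, a comparison in which 4 pairs a genotype cannot reach an exact p under 0.05.

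Myh6 did not pass the test between genotypes in either chamber. It measured 36688, 31788, 38918 and 38484 CPM in idKO ventricles 1 to 4, against 36325, 35956, 40670 and 38080 CPM in control ventricles 1 to 4. The libraries overlapped, and only idKO ventricle 2 lay below all the others. The log2 fold change was -0.05 ± 0.10 (SE, 95% interval -0.27 to 0.17; limma adjusted p = 0.867) in ventricles and -0.09 ± 0.15 (95% interval -0.42 to 0.24; adjusted p = 0.986) in atria. In atria it measured 32379, 29942, 30502 and 34968 CPM in idKO mice, against 30931, 35264, 32688 and 37508 CPM in control mice. The Cre transgene of the idKO mice borrows the Myh6 promoter, and its transcript carries part of Esr1, the oestrogen receptor gene. As a description, Esr1 stood at 8.44% ± 0.93 of the Myh6 value in idKO ventricles and at 0.570% ± 0.250 in idKO atria (SD, n = 4 each). In control ventricles it was 0.0026% and in control atria 0.0148%. Myh6 itself, per library, was 0.784 to 0.942 times as high in the atrium as in the ventricle of the idKO mice.

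The sequence before the RefSeq start of Myh6 and that before the outer RefSeq start of Myh7 are shown. MEIS proteins bind a TGACAG core, and the Cre was driven from the Myh6 promoter. RefSeq windows (GRCm38.p6, 250 bases before to 50 after the start) were found for 5 of the 6 genes. There were 6 windows, as Myh7 has another start inside its gene, and its outer window is shown. Positions are counted from the RefSeq start. For Myh6, Myh7b and Myom1 that start lies inside the GENCODE gene span (to 54966927 for Myh6, from 155611212 for Myh7b, from 71002633 for Myom1). Their windows are therefore not upstream of the whole annotated gene. The 216 bases of Myh6 (chr14:54966642-54966857) and the 250 bases of Myh7 (chr14:54994627-54994876) that lie outside annotated exons, on the minus strand and read 5′ to 3′, have TGACAG on either strand in capitals.
Myh6: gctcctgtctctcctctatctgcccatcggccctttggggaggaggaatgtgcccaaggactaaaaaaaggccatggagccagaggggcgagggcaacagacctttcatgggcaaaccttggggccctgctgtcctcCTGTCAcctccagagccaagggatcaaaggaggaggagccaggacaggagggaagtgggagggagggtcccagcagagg
Myh7: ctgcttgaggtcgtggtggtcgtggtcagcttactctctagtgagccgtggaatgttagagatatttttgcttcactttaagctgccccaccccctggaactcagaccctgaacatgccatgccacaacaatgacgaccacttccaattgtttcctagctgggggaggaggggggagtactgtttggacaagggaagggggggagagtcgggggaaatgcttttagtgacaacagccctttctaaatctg
Searched on both strands over the full 300 bases, TGACAG occurred 2 times for Myh6, 113 bases before and 27 bases after the start. It occurred once for Myh7b, 237 bases before the start, and in none of the windows of Myh7, Mybpc3 and Myom1. Of 32851 windows of that length, 19.2% hold it. The core CATTCC of the MCAT element, bound by TEAD factors, occurred in the window of Myh6 and in 14.7% of all. It also occurred in the outer window of Myh7, but not in the other window of Myh7. A match describes the letters and is not a bound site.

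Myh7b encodes a slow-type heavy chain and is the host of miR-499. It measured 113, 131, 131 and 153 CPM in idKO ventricles 1 to 4, against 129, 123, 140.5 and 146 CPM in control ventricles 1 to 4, and the groups overlapped (log2 fold change -0.03 ± 0.09 SE, 95% interval -0.22 to 0.15; limma adjusted p = 0.904). Mybpc3 (ENSMUSG00000002100, chromosome 2, 91118144 to 91136516) measured 5805, 5495, 6647 and 5802 CPM in idKO ventricles, against 5479.6, 5985, 5734 and 5186 CPM in control ventricles. These overlapped as well (log2 fold change 0.08 ± 0.08 SE, 95% interval -0.08 to 0.25; limma adjusted p = 0.665). The direction for Myh6 and for Myh7b turned to 0.051 and 0.068 on the log2 scale when libraries were rescaled to the same sum.

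In atria none of the 5 genes tested was called, where 3 of 14523 genes (0.0207%) were called by limma, 3 by edgeR and 12 by DESeq2, and 670 had an unadjusted limma p under 0.05. Myh7b fell below the filter on low values there. Neither Meis1 nor Meis2 was called in atria (limma adjusted p = 0.986 and 0.966), so an absent call there need not describe atria that lost both genes. Myom2 measured 1290.3, 1614, 1452 and 1488 CPM in idKO atria 1 to 4, against 1301, 1299, 1569 and 1485 CPM in control atria 1 to 4 (log2 fold change 0.05 ± 0.09 SE, 95% interval -0.14 to 0.24; limma adjusted p = 0.988). The idKO and control atria overlapped. Myom1 measured 826, 819, 903 and 1239 CPM in idKO atria, against 957, 1138, 947 and 1096 CPM in control atria, and idKO atrium 4 was again the highest. Mybpc3 measured 1641, 1732, 1908 and 2082 CPM in idKO atria, against 1742, 2233, 1940.4 and 1856 CPM in control atria.

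**Figure D3:**
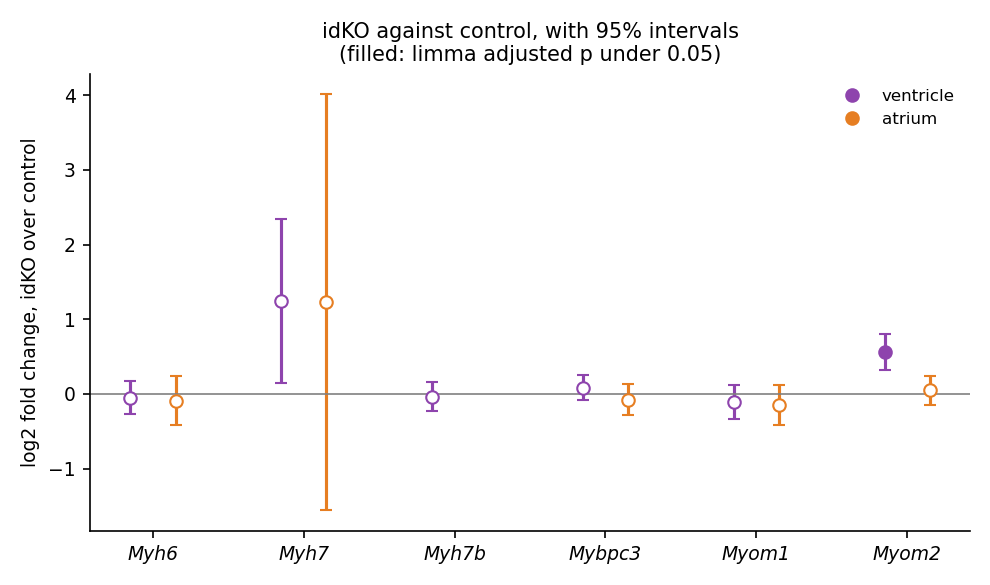
Log2 fold change of idKO over control (limma, log2(value + 1) scale) for the 6 genes in ventricles (purple) and atria (orange); bars are 95% intervals and filled points passed an adjusted p of 0.05. Only Myom2 in ventricles (0.56) is filled, and Myh7 has the widest intervals, with Myh7b in atria below the filter.

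The difference of the genotype effect between chambers was tested directly. None of the 6 genes passed, where 0.296% of 14871 genes did. For Myom2 the effect in atria was 0.51 lower than in ventricles on the log2 scale (-0.51 ± 0.16 SE, 95% interval -0.84 to -0.19; limma adjusted p = 0.376). With the mouse as a replicate block, which uses that both chambers came from 1 animal, it passed at an adjusted p of 0.0072 (limma). For Myh7 the difference was -0.02 ± 1.58 (SE; limma adjusted p = 0.999), an interval of -3.33 to 3.29 that allows large differences either way.

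Between the chambers, atria had less Myh7b, Mybpc3 and Myom1 than ventricles in both genotypes. In idKO mice 4 of the 6 genes were lower in the atrium and 2 did not pass. Of 14871 genes, 4024 were called lower there, and 53.8% were called in either direction. In control mice 3 were lower and 3 did not pass, where 4267 genes were called lower and 56.9% were called in either direction. These shares are of the deposited scale: when libraries were rescaled to the same sum, the calls in control mice moved from 4201 higher and 4267 lower to 9881 higher and 1386 lower, and the median of all genes moved to 0.45 in idKO mice and 0.52 in control mice on the log2 scale, against 0.02 for both as deposited.

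Myh7b was nearly a ventricular transcript. It measured 0.429, 0.634, 2.16 and 1.21 CPM in idKO atria 1 to 4, from 5 to 39 reads, and 0.812, 1.16, 0.106 and 0.888 CPM in control atria 1 to 4, from 1 to 19 reads. The atrium was below the ventricle by -6.04 ± 0.21 on the log2 scale in idKO mice and -6.32 ± 0.21 in control mice (SE; limma adjusted p = 4.7e-14 and 2.1e-14), which understates the difference at such low values. Mybpc3 was lower in the atrium by -1.69 ± 0.09 in idKO mice and -1.53 ± 0.09 in control mice (SE, log2 scale), and the atrium held 0.283 to 0.359 times the ventricular value in the idKO mice and 0.318 to 0.373 times in the control mice. For Myom1 the differences were -0.83 ± 0.13 in idKO mice and -0.79 ± 0.13 in control mice, and every atrium lay below every ventricle of its genotype. After rescaling, Mybpc3 was at -1.21 in idKO mice and -0.96 in control mice, and Myom1 at -0.34 in idKO mice. The Myom1 call in control mice was lost then (-0.23, limma adjusted p = 0.070).

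Myom2 differed between chambers in idKO mice, at -0.71 ± 0.11 (SE, log2 scale; limma adjusted p = 2.2e-05), and did not pass in control mice, at -0.20 ± 0.11 (limma adjusted p = 0.138). With the replicate block the control difference passed (adjusted p = 0.010, limma), and without control ventricle 2 it was -0.29 and passed (adjusted p = 0.028). After rescaling it was -0.23 in idKO mice (adjusted p = 0.091) and turned to 0.37 in control mice (adjusted p = 0.0087). Relative to the median of all genes, it stayed negative in both genotypes after rescaling, at -0.68 and -0.15. For Myh7 the atrium was lower by -2.44 ± 1.11 in idKO mice and -2.42 ± 1.11 in control mice (SE, log2 scale; limma adjusted p = 0.073 and 0.072), and with the replicate block both passed (adjusted p = 0.0012 in each). The atrium held less Myh7 than the ventricle in 8 of 8 mice, from 0.028 to 0.718 times the ventricular value. Without the 3 mice the differences were -4.08 in idKO mice and -3.01 in control mice (limma adjusted p = 9.0e-07 and 1.0e-06). The mice left out were chosen for their high Myh7, which in atria narrows the gap to the ventricle, so these p-values are not independent support. The size of the difference varied widely: it was -1.23 in idKO mice and -1.11 in control mice by edgeR (adjusted p = 0.374 and 0.417), and -1.25 and -1.14 by DESeq2 (adjusted p = 0.391 and 0.430). Without idKO atrium 2 the idKO difference was -1.49 (limma adjusted p = 0.267). Without idKO atrium 3 or idKO atrium 4 it was -3.18 or -3.24, and without control atrium 2 the control difference was -3.60 (limma adjusted p = 0.028, 0.023 and 0.0048). Leaving out control atrium 2 also brought the idKO call (adjusted p = 0.031), and leaving out idKO atrium 2 the control call (adjusted p = 0.047), through the spread that the limma fit shares. Myh6 did not pass in either genotype, at -0.19 ± 0.12 in idKO mice and -0.15 ± 0.12 in control mice (SE, log2 scale; limma adjusted p = 0.181 and 0.290). After rescaling it was called in the opposite direction, at 0.29 in idKO mice and 0.42 in control mice (limma adjusted p = 0.0026 and 9.9e-05). By DESeq2 the idKO difference, at -0.18, was called lower (adjusted p = 0.038). Relative to the median of all genes the rescaled values were -0.16 in idKO mice and -0.10 in control mice.

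**Figure D4:**
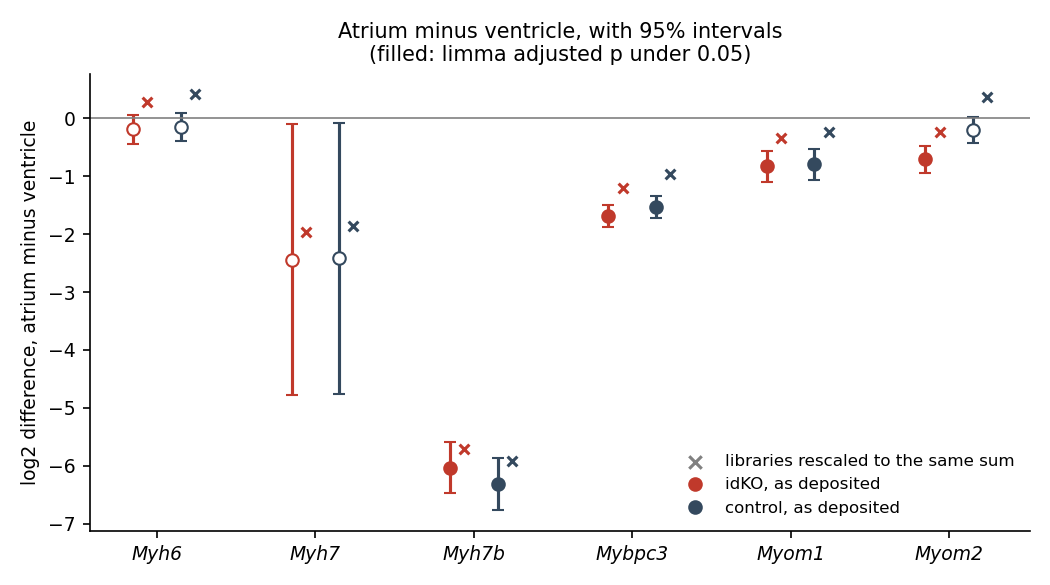
Log2 difference, atrium minus ventricle, for the 6 genes in idKO mice (red) and control mice (dark); bars are 95% intervals, filled circles passed an adjusted p of 0.05 and crosses give the value after rescaling libraries to the same sum. Myh7b lies lowest in both genotypes (-6.04 and -6.32), and the crosses of Myh6, and of Myom2 in control mice, lie above 0.

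Other genes of the thick filament and the M-band were read in ventricles from 5 lists of partners and regulators. Among 12 M-band partners, 1 fell and 11 did not pass, where 1.5% of the 13144 genes tested were called lower and 2.03% in either direction. Their median log2 fold change was -0.15 against -0.0076 over all genes tested. The one that fell was Fhl2, a LIM-domain protein that binds titin, which measured 793 ± 116 CPM in idKO ventricles and 2206 ± 177 in control ventricles (SD, n = 4 each; log2 fold change -1.48 ± 0.09 SE, limma adjusted p = 1.8e-06). The list also holds the kinase gene Alpk3 and the muscle ring-finger genes Trim63, Trim55 and Trim54. Of 7 thick filament partners tested, none passed, and the median was -0.03. Titin (Ttn), the elastic ruler of the sarcomere, measured 5032 ± 143 CPM in idKO ventricles and 5161 ± 299.6 in control ventricles. The ventricular light chain gene Myl2 measured 7182 ± 491 CPM in idKO ventricles and 8396 ± 316 in control ventricles (log2 fold change -0.23, limma adjusted p = 0.152).

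Among 24 regulators of cardiac myosin genes, 1 rose and 23 did not pass, where 0.533% of all genes tested were called higher and 2.03% in either direction. Their median was -0.05. Tbx20, a T-box transcription factor of the heart, measured 147 ± 13.6 CPM in idKO ventricles and 109 ± 8.91 in control ventricles (SD, n = 4 each; log2 fold change 0.42 ± 0.08 SE, limma adjusted p = 0.014). Its call was lost without control ventricle 3 or without control ventricle 4 (limma adjusted p = 0.051 in each case). The list also holds the thyroid hormone receptor genes, whose products set the balance of alpha and beta chains in the mouse, and genes of the TEAD, MEF2 and GATA factors. None of 6 myosin folding and assembly genes passed, among them the chaperone gene Hsp90ab1 (1686 ± 306 CPM in idKO ventricles and 1726 ± 156 in control ventricles) and the methyltransferase gene Smyd1 (718 ± 60.6 and 804 ± 23.6). None of 4 other myosin heavy chains passed, among them the non-muscle genes Myh9 (132 ± 14.2 CPM in idKO ventricles and 122 ± 5.76 in control ventricles) and Myh14 (161 ± 13.1 and 168 ± 13.1). No gene of the 5 lists was called in atria. Between chambers, 8 of the 12 M-band partners were lower in the atrium and none was higher in idKO mice, and 8 were lower and 1 higher in control mice. Of 14871 genes, 4024 in idKO mice and 4267 in control mice were called lower. In either direction, 53.8% and 56.9% were called. These counts are of the deposited scale, and rescaling moved most calls over all genes to higher in the atrium.

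**Figure D5:**
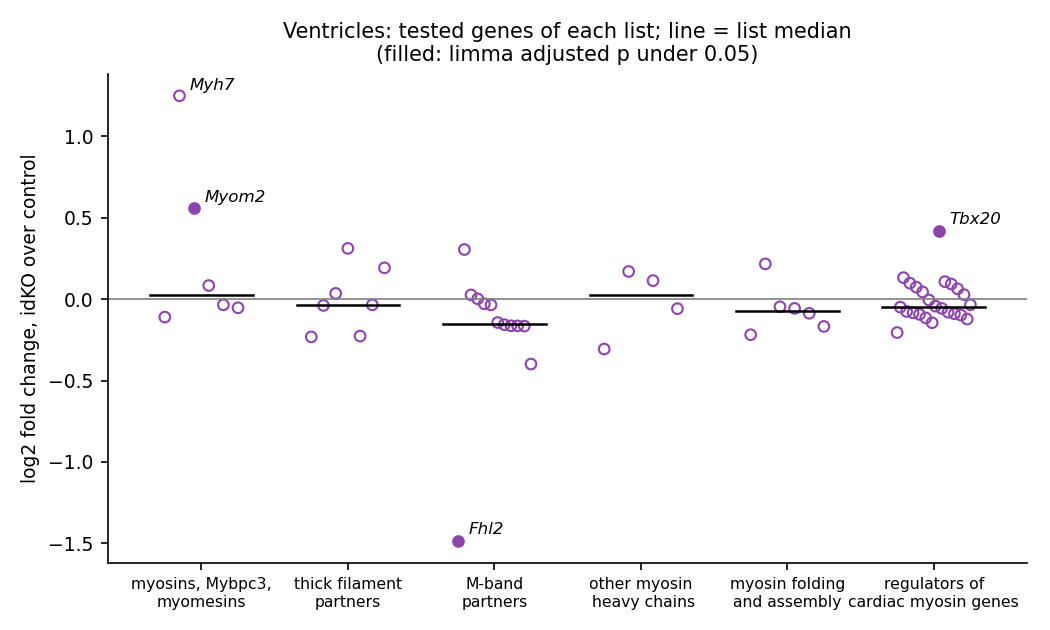
Log2 fold change of idKO over control in ventricles (vertical) for the 6 genes and the tested genes of 5 lists (horizontal); each circle is a gene, lines are list medians and filled circles passed an adjusted p of 0.05. Fhl2 (-1.48), Tbx20 (0.42) and Myom2 (0.56) are filled, while Myh7 (1.25) is open.

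The genes with the most similar pattern were sought over the 16 libraries, by the root mean square (rms) difference of centred log2 values among 11190 genes with a mean of at least 5 CPM. For Myh6 these were Hdgfl2 and Nomo1 (rms 0.07 each). For Myh7b they were Myl3, the ventricular essential light chain (rms 0.34), and Lrtm1 (0.56). For Mybpc3 they were Coq3 (0.08) and Fblim1 (0.10), for Myom1 Itga7 (0.11) and Rcan2 (0.11), and for Myom2 Fmnl3 (0.15) and Ttll7 (0.15). The rms depends on how much a gene itself varies. The SD of log2 values over the 16 libraries was 0.138 for Myh6, 0.349 for Myom2, 0.463 for Myom1, 0.841 for Mybpc3, 2.24 for Myh7 and 3.21 for Myh7b. Distances of different genes are therefore not on a common scale. For Myh7 the nearest by the rule was Ankrd23, at an rms of 1.60. Among predicted names, which the rule passes over, the processed pseudogene Gm3375 (chromosome 7, 3181093 to 3181888) came closer (rms 1.45). It was named after its values were seen. It measured 14.95 and 16.02 CPM in the ventricles of idKO 3 and idKO 4 and 20.3 in that of control 2, and 10.5, 12.1 and 9.41 CPM in their atria, while neither chamber of the other 5 mice had a read.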

How the data were processed

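RNA from ventricles and atria of 8 mice gave 16 libraries of polyadenylated RNA, made from 20 ng of RNA each and read as single 60-base reads, per the labels' protocols. Per the submitters' processing notes, the authors used cutadapt and RSEM 1.3.1 with GRCm38; for the scaling tool, gene filters and strand setting, the sources used here name nothing. The deposited values are a normalised signal: adding 0.5 to whole reads and scaling by the library's effective size gives CPM of this form. Undoing it gave whole reads for 100% of values (tolerance 0.01), in all 13.1 to 21.8 M reads per library. The effective size was 0.929 to 0.986 of the reads in atria and 0.622 to 0.727 in ventricles, so differences between chambers depend on it. An SD, or an interval of a genotype effect within a chamber, covers the spread between mice. Intervals of chamber contrasts and of the difference of effects come from a fit that treats the 16 libraries as independent. They do not use the pairing within a mouse.

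Values were tested as log2(value + 1) with limma 3.58.1 (trend, two-sided, Benjamini-Hochberg over all genes tested; R 4.3.3), for genes with at least 1 CPM (of the library's summed values) in at least 4 libraries. Such fold changes understate the change of low genes. Genotypes were compared within a chamber from its 8 libraries, and chamber contrasts and the difference of effects on all 16. The planned design allowed for counts; the form planned for normalised values was used. Alternatives were pseudocounts of 0.5 and 5, no filter, libraries rescaled to the same sum, DESeq2 1.42.0 and edgeR 4.0.16 with TMM on the recovered reads, each library left out, and the mouse as a block. Ventricle and atrium numbers pair because both came from 1 animal; over 11802 genes, the deviations of a mouse's chambers from their group means had correlations of 0.177 to 0.302, and for all 8 mice the best match was the same animal. Replicates differed by more than sampling noise (mean chi-square per gene of 8.08 to 16.8). The fits were also run on simulated data with the same dispersion for every gene and no pairing of chambers. That setting does not test them for genes as spread as Myh7.

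The 6 genes, the lists and the tests were chosen with earlier results of these data known. Genes named by rule were the 6 genes, called genes of each list or else its 2 tested genes with the highest mean, and the 2 genes most like each of the 6 in pattern, of which 1 is not reported here. Positions and lengths come from GENCODE for GRCm38, and promoter and microRNA sequences from RefSeq. Of 206 rows without a name, 202 were named from the reference.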

Additional observations from a re-analysis of the deposited data

Results flagged for a closer look

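In 60 groups of 4 libraries, the gap between the highest or lowest library and the nearest other one was compared with the group's range by Dixon's test, and 7 groups passed; chance passes about 1 in 20 groups. Of these, 4 concern Myh7 in control mouse 2, which stood at 2186 CPM in the ventricle, where the other control ventricles held 335 to 519, and at 1404 CPM in the atrium, where the others held 48.3 to 54.3, and its share of Myh6 plus Myh7 stood at 5.73% and 3.83% in the same libraries. The ventricle of the same mouse was also highest for Meis1, at 28.4 CPM against 26.8 to 27.0 in the other control ventricles. The others were Myom1 in control ventricle 4, at 1904 CPM against 1745 to 1752 in the other control ventricles, and Irx4 in control atrium 4, at 0.201 CPM, a level under the filter on low values. In idKO groups the high and low Myh7 libraries were 2 and 2 in atria, a split that Dixon's test does not pick out.

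The genotype effect differed between chambers by a direct test for 5 genes, among those named with a genotype result of their own, where 0.296% of 14871 genes passed. Of the 5, Meis2 is a floxed gene and part of Esr1 is in the Cre transcript. Fhl2, Nppa and Irx4 were named for their calls in the same ventricle libraries, so the count is not independent support. For Fhl2 the effect in atria minus that in ventricles was 1.25 on the log2 scale (limma adjusted p = 0.0012), for Meis2 1.33 (0.00027), for Esr1 -5.82 (8.2e-08), for Nppa -2.39 (0.0020) and for Irx4 0.99 (0.043). Fhl2 measured 328 ± 54.8 CPM in idKO atria and 384 ± 58.2 in control atria (SD, n = 4 each).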

How the results depend on the processing

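In ventricles 267 genes passed, against 537 with DESeq2, 148 with no filter and 132 to 359 with 1 library left out; rescaling turned 70 higher and 197 lower into 150 and 108. In atria 3 passed, against 12 with DESeq2, 5 without the 3 mice high in Myh7 and 2 to 4 with 1 library left out. For the difference of effects 44 passed, against 86 with DESeq2, 31 with edgeR, 22 after rescaling (17 higher and 5 lower, against 40 and 4), 102 with the mouse as a fixed replicate block, 23 without the 3 mice and 26 to 46 with 1 library left out. For idKO chambers rescaling turned 3983 higher and 4024 lower into 9253 and 1546.

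Some directions turned. In ventricles, Myh6 turned to 0.051 and Myh7b to 0.068 after rescaling, and with 1 library left out they ran from -0.086 to 0.012 and from -0.11 to 0.036. Between chambers, rescaling gave Myh6 0.29 in idKO mice and 0.42 in control mice and gave Myom2 0.37 in control mice, all called (limma adjusted p = 0.0026, 9.9e-05 and 0.0087). Without the 3 mice, Myom2 in atria was -0.0041, and the difference of effects was 0.056 for Myh6 and 0.020 for Myom1. With 1 library left out, Myom2 in atria ran from -0.0015 to 0.11, and the difference of effects from -0.10 to 0.0073 for Myh6, -0.82 to 1.16 for Myh7 and -0.17 to 0.10 for Myom1. The cause was not tested.

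The replicate block changed the calls of Myom2 in the difference of effects and in control chambers and of Myh7 in both chamber contrasts (adjusted p = 0.0072, 0.010, 0.0012 and 0.0012), and no other call of the 6 genes. Leaving out the 3 mice was chosen after seeing the data. With 4 mice a genotype and a Myh7 spread of over 4-fold within groups, the Myh7 intervals are wide.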
